A study of Mus musculus with 4 samples.

Results

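The early growth response genes Egr1, Egr2 and Egr3 and the nuclear receptor genes Nr4a1, Nr4a2 and Nr4a3 were examined through 28 regions of accessible chromatin, out of 91858 regions in the whole series. The regions came from ATAC-seq, in which a transposase cuts and tags open DNA. Peaks of 4 libraries were merged wherever they overlapped by at least 1 bp. A region was given to a gene when that gene was its nearest protein-coding gene and lay no more than 50 kb away, and 80467 regions met this condition for some gene. The cells were mouse macrophages grown from bone marrow for 7 to 10 days with L929 cell medium, which supplies macrophage growth factor. The knockout (KO) cells carried floxed Ezh2 alleles and a single LysM-Cre allele (Ezh2fl/fl;LysM-Cre+/-), in which Cre is made from the Lyz2 locus of myeloid cells. The wild-type (WT) cells came from littermates, whose own floxed and Cre alleles the labels do not state. Cells of all 4 libraries had spent 24 hours in conditioned medium of the mouse hepatoma line Hepa1-6. Unexposed cells were not analysed here, so every value below refers to exposed cells. Each genotype had 2 libraries, and the labels do not say whether these came from separate mice or cultures, so the SDs measure only the spread between these libraries.

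Both families are immediate early genes, which are transcribed within minutes of a stimulus from promoters that need no new protein synthesis. EGR factors bind GC-rich DNA through zinc fingers, and NR4A factors are orphan nuclear receptors that bind the element called NBRE as monomers. Their induction is classically carried by serum response factor with its ETS partners at CArG boxes and by CREB at cAMP response elements (CREs). In macrophages, Egr1 has been tied to differentiation, Egr2 to alternative activation, and the NR4A receptors to restraint of inflammatory genes and to survival of patrolling monocytes. Ezh2, the gene removed here, encodes the enzyme of Polycomb repressive complex 2.

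The promoters are shown first. Printed for each gene is the first listed start's window that lay whole in a called region and held a CRE core. These features were thus set by the choice and are not results. RefSeq promoter windows on build GRCm38.p6, the assembly named mm10 in the submitters' processing notes, were matched for Egr2, Nr4a1, Nr4a2 and Nr4a3. Each window was cut to the 250 bases before a listed start, and both strands were searched. Capitals mark the CRE core (TGACG, or CGTCA on the other strand) and, in Egr2 only, the CArG box. The Nr4a1 and Nr4a2 windows are whole. For Egr2 and Nr4a3, stretches of 30 bases around the matches are given. Egr2 has 5 listed starts, and its stretches come from the window of the start at 67537869, chosen after the matches were seen.
Nr4a1, plus strand, chr15:101266596-101266845: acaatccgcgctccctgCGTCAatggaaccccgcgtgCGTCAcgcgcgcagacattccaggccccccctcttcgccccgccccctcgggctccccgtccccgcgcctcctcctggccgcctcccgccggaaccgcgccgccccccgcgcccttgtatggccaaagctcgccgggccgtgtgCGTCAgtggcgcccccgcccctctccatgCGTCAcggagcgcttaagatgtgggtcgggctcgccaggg
Nr4a2, minus strand, chr2:57124004-57124253: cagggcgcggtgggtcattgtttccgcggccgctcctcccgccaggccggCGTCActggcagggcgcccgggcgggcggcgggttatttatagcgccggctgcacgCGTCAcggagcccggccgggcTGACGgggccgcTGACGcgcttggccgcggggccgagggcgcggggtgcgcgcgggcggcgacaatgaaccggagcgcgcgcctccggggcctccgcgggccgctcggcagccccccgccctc
Nr4a3, plus strand, chr4:48045070-48045099: agggTGACGtagcgtcccatgtCGTCAcat
Nr4a3, plus strand, chr4:48045096-48045125: acatTGACGtctcgcattccaggcactcta
Nr4a3, plus strand, chr4:48045154-48045183: taaaTGACGtgccgagagagcgagcgaacg
Egr2, plus strand, chr10:67537754-67537783: catgTGACGgcaaaagctgccaggcccagc
Egr2, plus strand, chr10:67537793-67537822: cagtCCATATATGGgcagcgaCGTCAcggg

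Each of the 3 NR4A windows held 4 CRE cores. Among 32851 promoter windows of the same length, 17.8% held at least 1 and 0.137% (45 windows of 44 genes) held 4 or more. G and C made up 74.4% of the Nr4a1 window, 80% of the Nr4a2 window and 63.6% of the Nr4a3 window. The 32851 windows were not matched for this content. In Nr4a1 the matches began 233, 213, 69 and 40 bases before the start, in Nr4a2 200, 144, 123 and 111 bases, and in Nr4a3 231, 213, 205 and 147 bases. The Egr2 window of the start at 67537869 held 2 CRE cores, 111 and 55 bases before the start, which 3.9% of windows match or exceed. The windows of the starts at 67537870 and 67537930 overlap it and hold the same cores, the latter with 189 of its bases in a called region. The windows of the starts at 67535499 and 67537566 held none, and the first of these had no base in a called region. In the window of the start at 67537869, a CArG box lay between the 2 CRE cores, 72 bases before that start. That motif was held by 1.47% of all windows. A CArG box of other letters also lay 72 bases before the Egr2 start at 67537566, and a GC box (GGGGCGGGG, in 10.4% of windows) lay 37 bases before it.

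Nr4a1 further held a match to the EGR element (GCGTGGGCG or GCGGGGGCG, 3.06% of windows) 60 bases before its start, which overlapped the nearer of its 2 GC boxes. The full CRE (TGACGTCA, 1.55% of windows, which contains the core), the NBRE (AAAGGTCA, 1.34%), the AP-1 element (TGANTCA, 6.75%), an ETS element (CCGGAAGT, 2.88%) and a PU.1 element (GAGGAAGT, 2.44%) had no match in the 4 windows from which sequence is shown. The choice of those windows required every base to lie inside a called region, and the regions concerned were called in all 4 libraries. These matches describe the letters only, and the lists hold no footprint of a bound factor.

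The lists held between 67055 and 72887 peaks per library, with KO replicate 1 the shortest and WT replicate 2 the longest. The files give no read counts, so the depth is unknown, and an uncalled peak may reflect depth. As a check of the labelled cell type, 10 of 10 macrophage markers had a region within 1 kb of a gene end in each library, as 54.7% of all protein-coding genes did. The same held for 2 of 6 neutrophil markers, 1 of 5 T and NK cell markers, 1 of 5 B cell markers, 2 of 4 dendritic cell markers, 1 of 5 hepatocyte and hepatoma markers and 1 of 4 fibroblast markers. At Ezh2 itself, the gene-end region measured 1378 and 1408 bp in WT and 1350 and 1351 bp in KO, so it was called in all 4 libraries. Another region called in all 4, on chromosome 6 from 47532495 to 47532897, measured 403 and 372 bp in WT and 106 and 182 bp in KO, narrower in both KO libraries. The files used here do not place the deleted exons, so whether these regions bear on the deletion was not tested. Among the marker genes for other cell types, Ncr1 (log2 difference 1.07), Ebf1 (-1.73) and Pdgfra (-0.71) had an unadjusted p under 0.05, and none of them passed adjustment (limma, adjusted p from 0.864 to 0.874). Their part in the values below was not tested.

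Of the 28 EGR and NR4A regions, 19 (67.9%) had peaks in every library, and 59.5% of the 80467 regions near protein-coding genes did so. A single region, inside Nr4a3, had peaks in both KO libraries only, a pattern shown by 1.44% of regions near genes, and 4.92% of protein-coding genes had at least 1 such region. None showed the reverse, against 1.94%. Of the rest, 1 was called in a single library of each genotype, as were 4876 of the 80467 regions near genes. A further 3 were called in 3 libraries (9.35% of regions near genes) and 4 in a single library (21.7%). All 4 of those single calls were in WT libraries, at Egr3, Nr4a2 and Nr4a3. Those at Egr3 and Nr4a2 and 1 of those at Nr4a3 came from WT replicate 2, which has the longest list. The other at Nr4a3 came from WT replicate 1. How single calls divide between the genotypes over all regions was not examined. A two-sided exact test of 2 against 2 cannot go below p = 0.333, so no region was tested by its calls.

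**Figure D1:**
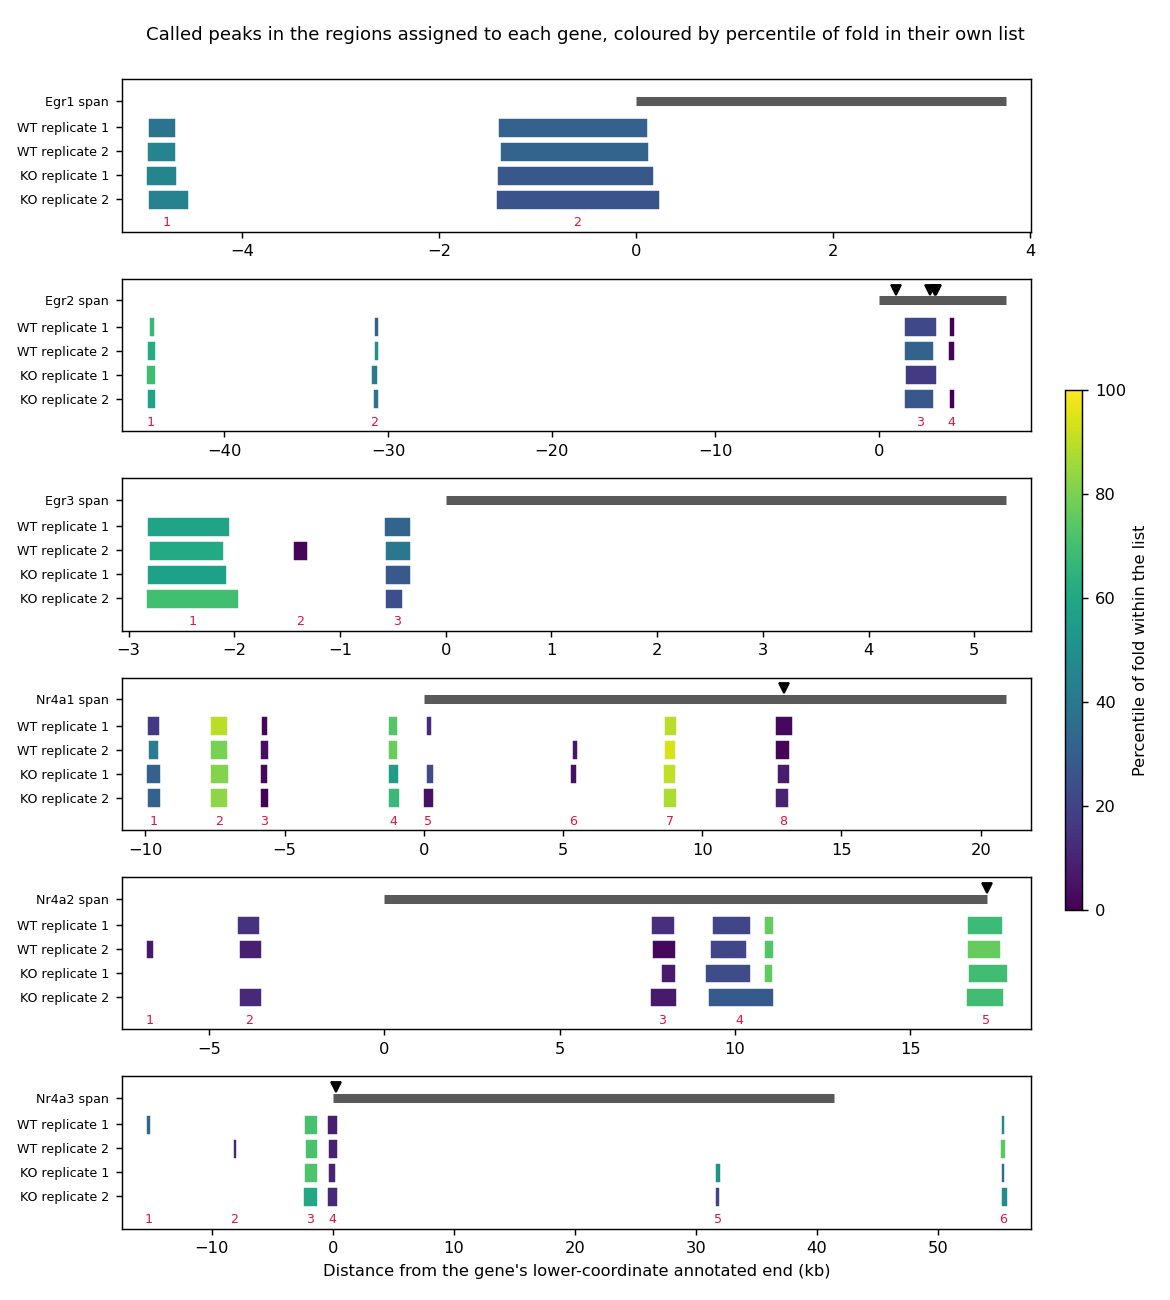
Called peaks in the regions of each gene, with 1 row per library and the distance from the gene's lower-coordinate annotated end on the x axis (kb). Grey bars are the annotated gene spans, triangles are listed starts, red digits number the regions, and colour gives the percentile of fold within the peak's own list. Peaks with the highest percentiles lie away from the starts at Nr4a1 (regions 2 and 7), and region 5 of Nr4a3 has peaks in the KO rows only.

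Regions are numbered from the lower to the higher coordinate of each gene. The width of a region in a library is the summed length of that library's peaks in it. The rank of a peak is the percentile of its deposited fold enrichment among the peaks of its own list. The fold is the authors' value, and a rank from lists of unequal length shows no change between libraries.

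Egr1, which encodes a zinc finger activator and repressor, spans 34861207 to 34864956 on chromosome 18. Its 2 regions were called in all 4 libraries. Region 2 (34859798 to 34861425) covered the gene's lower-coordinate end, with 1490 bp in both WT libraries and 1559 and 1628 bp in KO replicates 1 and 2. It was thus wider in both KO libraries, while its percentiles (30.8 and 32.0 in WT, 27.0 and 25.8 in KO) placed it in the lower part of each list. Region 1 (34856244 to 34856640), 4567 bp from the gene, measured 257 and 264 bp in WT and 285 and 382 bp in KO. The groups did not overlap there either, and most of the gap came from KO replicate 2. A further 7 regions within 50 kb of Egr1 lay nearer to another gene and were not counted here.

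Egr2, a zinc finger gene first known for hindbrain and Schwann cell development, spans 67534469 to 67542188 on chromosome 10, and the promoter table lists 5 starts for it. Region 3 (67536052 to 67537868) covered 1809 and 1664 bp in WT and 1782 and 1662 bp in KO, and the genotypes overlapped. It contains the CArG box and the 2 CRE cores shown above. Its percentiles were 21.8 and 31.3 in WT and 16.5 and 27.0 in KO. Region 4 (67538749 to 67538974), also inside the gene, was called in both WT libraries and KO replicate 2 at percentiles from 0.296 to 1.16, close to the foot of each list.

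The other Egr2 regions lay far from the gene and ranked higher than those inside it. Region 1 (67489776 to 67490194), 44275 bp away, measured 209 and 336 bp in WT and 419 and 377 bp in KO, at percentiles from 58.1 to 69.3. Region 2 (67503500 to 67503774), 30695 bp away, measured 124 and 128 bp in WT and 240 and 164 bp in KO, at percentiles from 31.3 to 49.3. In both regions each KO library exceeded each WT library. The fitted differences were 0.60 (SE 0.32) and 0.67 (SE 0.30) on the log2 scale, and neither passed the test over all shared regions (limma, adjusted p = 0.971 for each). Single libraries moved both: region 1 ran from 0.29 without WT replicate 1 to 0.91 without WT replicate 2, and region 2 from 0.33 without KO replicate 1 to 1.01 without KO replicate 2.

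Egr3, which acts downstream of antigen and growth factor receptors in lymphocytes and neurons, spans 70077317 to 70082613 on chromosome 14 and had no region inside it. Region 1 (70074494 to 70075340), 1977 bp below the gene, measured 764 and 685 bp in WT and 733 and 847 bp in KO, so the genotypes overlapped. Its percentiles ran from 57.1 to 69.9. Region 3 (70076738 to 70076969), 348 bp below the gene, measured 230 and 221 bp in WT and 219 and 149 bp in KO. Here the KO libraries were narrower, by 2 bp between the nearest pair. Region 2, of 115 bp, was called in WT replicate 2 alone at percentile 1.15.

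Nr4a1, which encodes the receptor Nur77, spans 101253902 to 101274795 on chromosome 15 and had the most regions, 8, of which 6 were shared by all libraries. Region 8 (101266544 to 101267074) contains the listed start and the 4 CRE cores. It measured 526 and 422 bp in WT and 367 and 419 bp in KO, and its percentiles were only 2.23 and 1.10 in WT against 7.04 and 9.42 in KO. Both KO libraries were narrower than both WT libraries, by 3 bp between the nearest pair. The fitted log2 difference was -0.25 (SE 0.22; limma, adjusted p = 0.972), and it was -0.06 without WT replicate 1 and -0.44 without WT replicate 2.

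Regions 1, 2, 4 and 7 of Nr4a1 ranked above its start region in every library. Region 1 stood at 16.8 and 41.9 in WT and 31.6 and 31.3 in KO. Region 7 (101262537 to 101262929), inside the gene and 3917 bp from the listed start, ranked at 89.1 and 94.0 in WT, and at 90.4 and 87.3 in KO. Region 2 (101246251 to 101246832), 7070 bp below the gene, stood at 89.6 and 79.6 in WT and 81.4 and 83.1 in KO. Region 4 (101252648 to 101252962), 940 bp below the gene, stood at 73.2 and 77.0 in WT and 55.4 and 67.3 in KO. Region 7 measured 348 and 330 bp in WT and 358 and 391 bp in KO, and region 4 measured 259 and 234 bp in WT and 277 and 312 bp in KO. Both were wider in each KO library than in each WT library, as was region 1 (373 and 298 against 420 and 423 bp). Region 2 overlapped between genotypes, with 524 and 544 bp in WT and 564 and 537 bp in KO. So did region 3, a weak call of 145 to 207 bp at percentiles from 0.645 to 3.67. Region 5 was missing from WT replicate 2, and region 6 had peaks only in WT replicate 2 and KO replicate 1.

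Nr4a2, which encodes Nurr1, best known in dopamine neurons, spans 57106830 to 57124003 on chromosome 2 on the minus strand. Its start region was the highest ranked of the start regions described here. Region 5 (57123454 to 57124544) measured 925 and 891 bp in WT and 1049 and 996 bp in KO, at percentiles from 68.3 to 76.3. All 4 CRE cores shown above lie in it, and each KO library was wider than each WT library. An overlapping gene model, LOC105244150, spans the same stretch, so the region cannot be given to Nr4a2 alone.

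Region 4 of Nr4a2 (57116015 to 57117890), inside the gene and 6113 bp from its start, had the only unadjusted p under 0.05 of the 19 shared regions. It measured 1236 and 1184 bp in WT and 1386 and 1810 bp in KO, a log2 difference of 0.40 with a 95% interval from 0.05 to 0.75 (limma, adjusted p = 0.92). The peaks behind these values differ in form. WT replicates 1 and 2 and KO replicate 1 each had a broad peak of 1029, 990 and 1212 bp and a separate narrow peak of 207, 194 and 174 bp, at percentiles 76.3, 73.0 and 75.6. KO replicate 2 had a single peak of 1810 bp at percentile 27.8, which ran across the gap. From first to last covered base the region spanned 1688 and 1739 bp in WT and 1853 and 1810 bp in KO. Joining the peaks therefore adds the gap to the width in KO replicate 2. Without that library the log2 difference was 0.28 (limma, adjusted p = 0.823), and without centring of the libraries the interval began at -0.02. Taking the widest peak alone gave 0.57, where KO replicate 2 entered with its joined peak of 1810 bp. Removing the weakest 25% of each list gave 1.49, with an interval from -1.26 to 4.24. The broad peaks of WT replicates 1 and 2 and KO replicate 1 stood at percentiles 20.9, 21.0 and 22.8. That filter thus left only their narrow peaks, beside the joined peak of KO replicate 2. Both values therefore carry the joined peak of that library.

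Elsewhere at Nr4a2, region 3 (57114420 to 57115106) measured 597 and 574 bp in WT but 321 and 687 bp in KO, the 2 KO libraries lying on either side of WT. Region 2 (57102661 to 57103284), 3546 bp from the gene, measured 571, 565 and 560 bp in the 3 libraries that called it and was uncalled in KO replicate 1. Its percentiles ran from 8.64 to 14.8.

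Nr4a3, which encodes NOR1, spans 48045078 to 48086447 on chromosome 4. Region 4 (48044702 to 48045361), which holds the listed start and the 4 CRE cores, measured 622 and 605 bp in WT and 404 and 638 bp in KO. It ranked low in each library, at percentiles from 8.53 to 11.3. Region 3 (48042696 to 48043700), 1378 bp below the gene, ranked much higher at 71.1 and 71.2 in WT and 71.9 and 59.9 in KO. It measured 891 and 860 bp in WT and 954 and 1002 bp in KO, again wider in both KO libraries.

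Region 5 of Nr4a3 (48076720 to 48077002), inside the gene and 9445 bp from its higher-coordinate end, was the region called in KO alone. KO replicate 1 had 264 bp at percentile 51.1 and KO replicate 2 had 191 bp at percentile 20.4. It was not called in KO replicate 2 once the weakest 25% of each list was removed. Region 6 (48100311 to 48100656), 13864 bp above the gene, varied about as much within genotypes as between them, with 107 and 194 bp in WT and 109 and 308 bp in KO. Regions 1 and 2, of 124 and 108 bp, were each called in a single WT library.

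The widths of the shared regions were then compared over both families. In 10 of the 19 shared regions (52.6%) both KO libraries were wider than both WT libraries, where 16.2% of all 53062 shared regions were. In 2 of 19 both KO libraries were narrower, against 16.9% of all. The 10 regions were spread over Egr1 (2), Egr2 (2), Nr4a1 (3), Nr4a2 (2) and Nr4a3 (1). Regions of a gene come from the same libraries and are not replicates, so these shares are descriptions. Median widths of shared regions were 377 and 395 bp in WT and 365 and 401 bp in KO, so KO replicate 1 had the narrowest and KO replicate 2 the widest regions in general. Centred on each library's median, the counts were 11 wider and 1 narrower, against 16.8% and 15.5% of all shared regions.

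**Figure D2:**
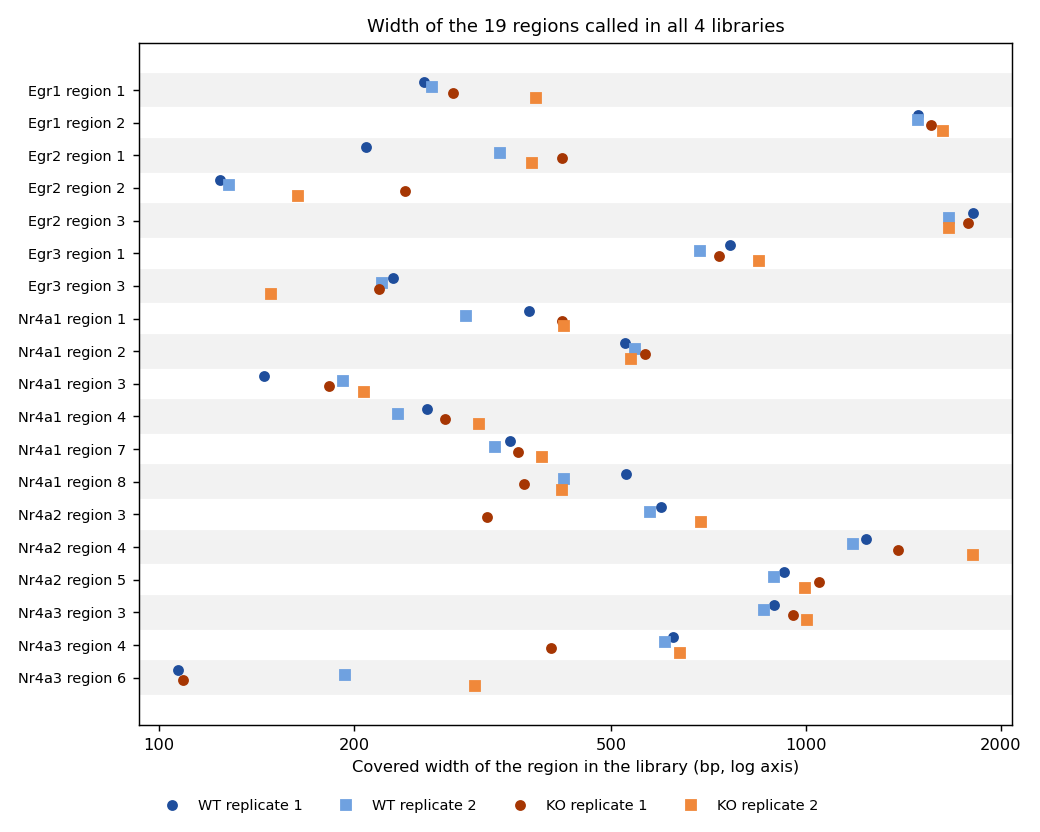
Covered width in bp (log axis) of each of the 19 EGR and NR4A regions called in all 4 libraries, with 1 point per library (blue WT, orange and brown KO). In 10 rows both KO points lie to the right of both WT points, and in 2 rows, Egr3 region 3 and Nr4a1 region 8, both lie to the left.

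None of these differences passed the test across regions. The limma fit of log2 width called 0 of 53062 shared regions in either direction (0% higher and 0% lower in KO), with 2760 at an unadjusted p under 0.05 and a smallest adjusted p of 0.586. Of the 19 EGR and NR4A regions 1 had an unadjusted p under 0.05, region 4 of Nr4a2. The fitted difference was above 0 in 15 of 19, with a median of 0.17 on the log2 scale, where 51.5% of all shared regions were above 0 and their median was 0.01. The intervals remain wide. They reach from -0.17 to 0.39 for region 2 of Egr1, from -0.37 to 0.37 for region 3 of Egr2, and from -1.04 to 1.76 for region 6 of Nr4a3.

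**Figure D3:**
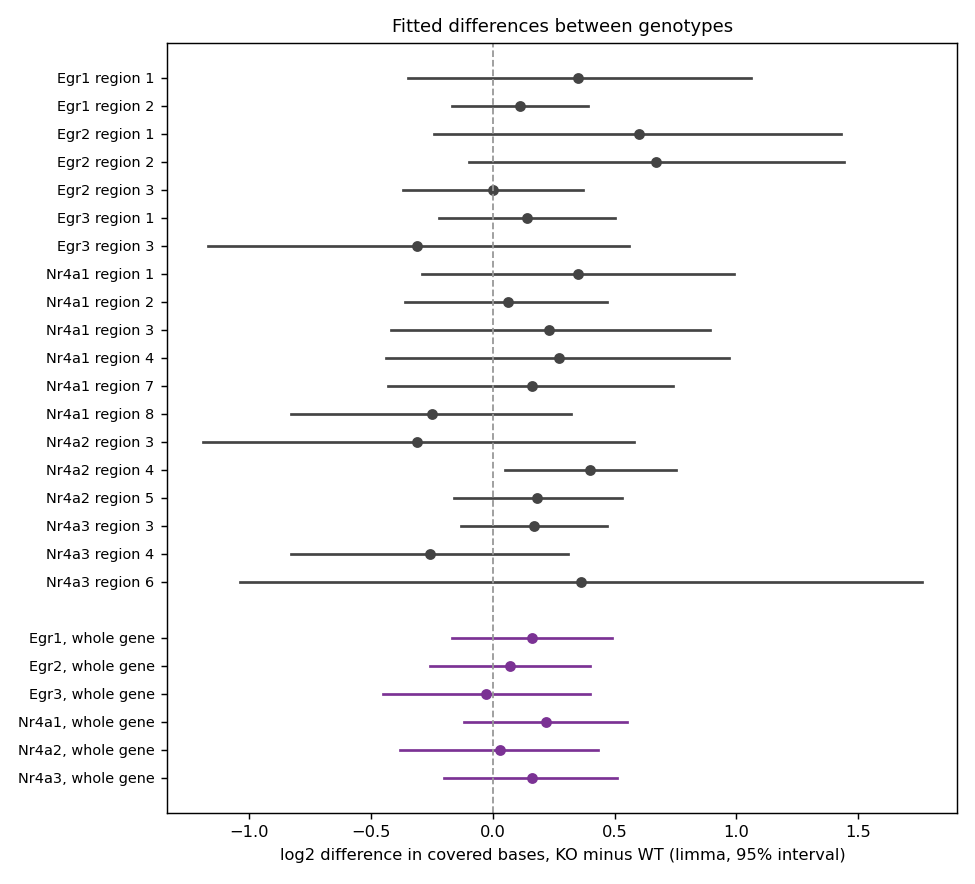
Fitted log2 difference in covered bases between KO and WT, with 95% intervals from limma, for the 19 shared regions (grey) and for the sum over each gene (purple). Only the interval of Nr4a2 region 4, from 0.05 to 0.75, lies wholly above 0, and its adjusted p was 0.92.

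Ranks of the same regions were described without a test. The median percentile of the 19 regions was 38.5 and 49.3 in WT and 41.6 and 38.0 in KO, where all shared regions had medians from 59.8 to 62.7, so the EGR and NR4A regions sat lower in each list than the usual shared region. The KO mean lay below the WT mean in 14 of 19 regions and above it in 5, with a median difference of -2.32 percentile points. Of all shared regions 51.4% were lower in KO, with a median of -0.22 points. Within genotypes the median SD between replicates of a region was 5.59 points. Region 4 of Nr4a2, where KO replicate 2 has the joined peak, dropped by 22.9 points, the most of the 19.

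**Figure D4:**
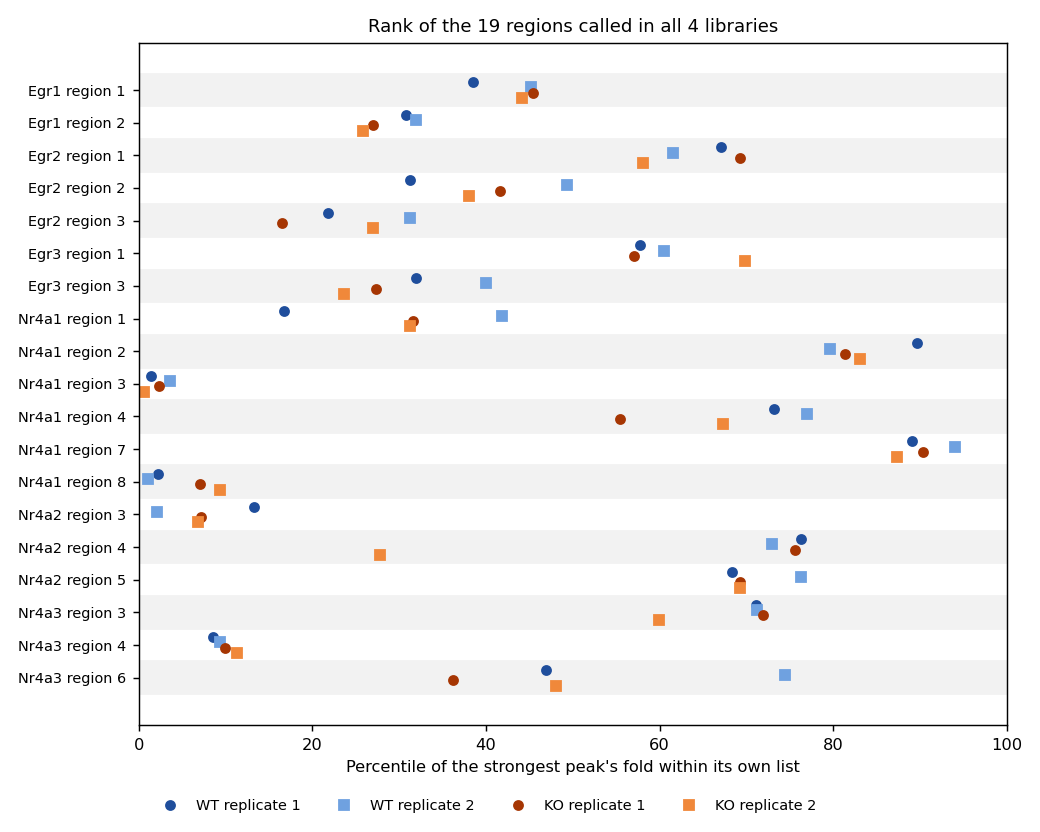
Percentile of the strongest peak's fold within its own list for the 19 shared regions, with 1 point per library (blue WT, orange and brown KO). Start regions of Nr4a1 (region 8) and Nr4a3 (region 4) lie at 11.3 or below in every library, whereas regions 2 and 7 of Nr4a1 lie at 79.6 or above.

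Summed over all regions of a gene, the bases under peaks gave 1 value per library. Egr1 had 1747 and 1754 bp in WT and 1844 and 2010 bp in KO. Egr2 had 2347 and 2340 bp in WT and 2441 and 2392 bp in KO, and Nr4a1 had 2281 and 2128 bp in WT and 2482 and 2564 bp in KO. In these 3 genes both KO libraries exceeded both WT libraries, as they did in 14.5% of the 15061 genes with a shared region. Egr3 had 994 and 1021 bp in WT and 952 and 996 bp in KO, Nr4a2 had 3329 and 3339 bp in WT and 2756 and 4053 bp in KO, and Nr4a3 had 1744 and 1767 bp in WT and 1731 and 2139 bp in KO, all overlapping. The WT replicates of Nr4a2 lay close together (SD 7.07 bp) and its KO replicates far apart (SD 917 bp).

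**Figure D5:**
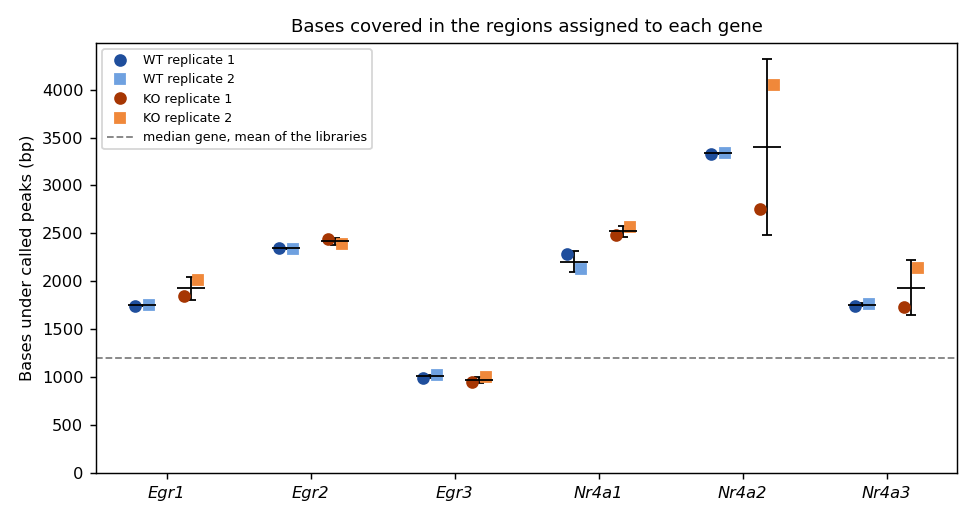
Bases under called peaks (bp) in the regions given to each gene, with 1 point per library and black marks for the mean and SD of each genotype (n = 2). Egr3 lies below and the other 5 genes lie above the median gene in each library, and the KO replicates of Nr4a2 lie farthest apart.

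By limma over 15061 genes, the differences of these sums were 0.16 (SE 0.13) for Egr1, 0.07 (SE 0.13) for Egr2 and -0.03 (SE 0.17) for Egr3 on the log2 scale. They were 0.22 (SE 0.13) for Nr4a1, 0.03 (SE 0.16) for Nr4a2 and 0.16 (SE 0.14) for Nr4a3. No member passed, with adjusted p of 0.954 or more for each, and 0 of 6 had an unadjusted p under 0.05. Over all genes 0% were called in either direction, and 831 had an unadjusted p under 0.05. The median gene's sum was between 1127 and 1246 bp in each library, and Nr4a2 stood at percentiles 85.4 to 91.4 of genes and Egr3 at 38.5 to 41.8.

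Sums grow with the length of sequence that counts as nearest to a gene, which ran from 22.7 kb for Egr3 to 111 kb for Nr4a3. Per kb of that sequence, Nr4a1 was covered most, with 58.8 to 70.8 bp per kb, followed by Egr1 with 59.1 to 68.0. These neighbours in the order overlapped. Nr4a2 followed with 41.2 to 60.6 bp per kb, overlapping Egr1 and Nr4a1 above it and Egr3 (41.9 to 44.9) and Egr2 (39.7 to 41.4) below it, and Nr4a3 was lowest with 15.7 to 19.3 bp per kb, apart from all others.

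Genes whose 4 sums were closest to those of a member on the log2 scale, among 15060 other genes, were Pik3r3 and Clmn for Egr1, Chchd4 and Mlycd for Egr2, and LTO1 and Abhd14b for Egr3. They were Mccc2 and Fcho1 for Nr4a1, Dap and Sdc1 for Nr4a2, and Pak2 and Ttll4 for Nr4a3. The Euclidean distances over the 4 libraries were between 0.038 and 0.1. Egr3 had 24 genes within 0.1, and Nr4a2 had 1.

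The fourth EGR gene, Egr4, differed from the others in having no region called in all 4 libraries. It had 2 regions, which covered 356 bp in WT replicate 2 and 147 and 253 bp in KO replicates 1 and 2 and were uncalled in WT replicate 1. The genes for the EGR inhibitors Nab1 and Nab2, which bind EGR factors and repress their targets, had 4 shared regions of 7. None of those 4 separated the genotypes by width.

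Among 17 genes of upstream regulators, which include serum response factor, its ETS partners, CREB and its coactivators and the ERK cascade, all had a region at a gene end in each library. Of all protein-coding genes 54.7% did. The 17 genes had 91 shared regions of 147 (61.9%), against 59.5% of regions near genes. Both KO libraries were wider in 22 of the 91 (24.2%) and narrower in 6 (6.59%). Among all shared regions the shares were 16.2% and 16.9%, and the difference was not tested. In limma 0 of the 17 genes passed, and Mrtfb, a coactivator of serum response factor, had an unadjusted p under 0.05 with a log2 difference of 0.26 (SE 0.096, adjusted p = 0.883). Regions called in both WT libraries alone lay in Elk3, an ETS partner of serum response factor, and at 2 places in Mrtfa, another of its coactivators. These 3 of 147 regions (2.04%) are near the 1.94% of all regions near genes. At Mrtfa the stronger of these, of 142 bp, stood at percentiles 28.0 and 48.8.

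Of 34 other immediate early genes, 33 had a region at a gene end in each library, the exception being Ccn1. Of all protein-coding genes 54.7% did. The 34 genes had 161 shared regions of 239 (67.4%), close to the 67.9% of the EGR and NR4A genes. Unlike at EGR and NR4A genes, regions wider and narrower in KO were equal in number, at 26 each (16.1% of 161). Of all shared regions 16.2% were wider and 16.9% narrower. The difference between the lists was not tested. Their median log2 difference per gene was 0.01, from -0.61 to 0.34, with 0 of 34 past the limma threshold and 0 at an unadjusted p under 0.05. Ier5 had a region called in both KO libraries alone, at percentiles 0.531 and 2.30. That made 1 of 239 regions (0.418%), against 1.44% of all regions near genes. Fos, Fosl1, Jun and Dusp2 each had a region called in both WT libraries alone, which made 4 of 239 (1.67%), near the 1.94% of all regions near genes. The strongest of these, of 249 bp and 31827 bp from Jun, which encodes an AP-1 subunit, stood at percentiles 52.7 and 79.5.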

How the data were processed

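Members and gene lists were chosen with earlier results of these data known. The 4 deposited broad peak lists (1 per library, not pooled) were used as deposited. The submitters' processing notes name fastp, Bowtie2, MACS2 and mm10; their versions, and the filter behind the peak numbers missing from each list, are not stated there. In the deposited lists, by their layout, the fold is a ratio over the caller's local background, and the −log10 p and −log10 q and the score derived from q are the caller's own. The authors' fold served only to rank peaks within a list. The largest deposited q-value was 0.0497. Read counts were not analysed here, so no precision by depth can be given.

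Gene spans came from the RefSeq table of GRCm38.p6. Regions inside several genes went to the gene with the nearest end. A region was shared when all 4 libraries called it. Log2 covered widths (53062 shared regions) and log2 sums per gene (15061 genes) were centred on library medians and fitted with limma 3.58.1 (eBayes with trend, R 4.3.3), with Benjamini-Hochberg adjustment over all features and a threshold of 0.05. The fit was tested on simulated normal data, with the spread averaged over features of similar size. With a true log2 change of 1 it recovered 16% of 100 changed regions and 40% of 100 changed genes. With a change of 2 it recovered 75% and 90%. False calls numbered 1 among regions and 9 among genes. A feature that did not pass may therefore still differ. Described were all 6 members, their shared regions, regions called in a single genotype, list genes with such regions or past the threshold, and the 2 genes closest to each member. The equal replicate numbers of the genotypes were checked as pairs, and the labels tie them to nothing shared. Motif shares refer to 250 bases before each listed start. The value of 1 marker gene is not reported here.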

Additional observations from a re-analysis of the deposited data

How the results depend on the processing

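Removing the weakest 25% or 50% of each list left 17 and 10 member regions, of which 12 and 7 were shared, and none was called in KO alone (0 and 0). Of all regions near genes, 37521 of 57483 and 23757 of 40206 were then shared, and 1.38% and 1.88% were called in KO alone. Taking any region within 50 kb, whatever gene was nearer, gave 62 regions, 46 of them shared and 2 called in WT alone (3.23%). No share over all genes was computed in this way. By nearest gene, 59.5% of all regions near genes were shared and 1.94% were called in WT alone. Requiring peaks to cover 50% of a region gave 3 of 28 regions called in KO alone, against 2.22% of all regions near genes. Leaving out 1 library in turn gave 19 to 21 shared regions, 25 to 28 regions in all, 1 to 2 called in KO alone (all regions near genes 3.25% to 7.63%) and 0 to 3 in WT alone (4.01% to 9.32%; 3 without WT replicate 1, 9.32%). It also gave 11 to 15 shared regions wider in KO (27.6% to 37.9% of all shared regions; 15 without KO replicate 1, 37.9%) and 2 to 4 narrower (27.7% to 39.6%; 4 without KO replicate 2, 39.6%). Narrower regions numbered 1 of 19 after centring (15.5% of all shared regions) and 1 of 13 at a mean width of 300 bp or more (16.2%). Without the weakest 25% they numbered 0 of 12 (16.9%). Wider regions in the same order numbered 11 of 19 (16.8%), 7 of 13 (16.9%) and 8 of 12 (16.1%).

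In limma, no alternative called any region or gene, the replicate block included (0 regions and 0 genes; smallest adjusted p 0.932 and 0.851). Deviations of equally numbered libraries correlated at 0.010 over regions and 0.041 over genes. With 2 libraries per genotype, these values cannot tell whether equally numbered libraries were prepared together. The replicate 1 lists (69210 peaks in WT, 67055 in KO) were shorter than the replicate 2 lists (72887 in WT, 71111 in KO). Of 206 alternative values for single regions and genes, 184 kept their direction, 11 reversed, and 11 had no direction because they or the value they are set against round to 0. Leaving out 1 library reversed the log2 difference at Egr3 region 3 (-0.65 to 0.04, reversed without KO replicate 2), Nr4a1 region 2 (-0.05 to 0.16, without KO replicate 1), Nr4a2 region 3 (-0.79 to 0.18, without KO replicate 1) and Nr4a3 region 6 (-0.32 without KO replicate 2 and -0.04 without WT replicate 1, up to 1.04). For whole genes it reversed at Egr2 (-0.02 to 0.15, without KO replicate 1), Egr3 (-0.07 to 0.01, without KO replicate 2) and Nr4a2 (-0.18 without KO replicate 2 and -0.02 without WT replicate 2, up to 0.23). It also reversed within 20 kb at Egr2 (-0.08) and by nearest gene end at Nr4a2 (-0.26). Within 20 kb, regions 1 and 2 of Egr2 are no longer counted, as they lie 44275 and 30695 bp from the gene. By nearest gene end, member regions numbered 27 with 18 shared, against 28 with 19 shared. Of all regions near genes, 43302 of 71133 were then shared, against 47917 of 80467. Beyond these changes and fewer peaks or libraries, the cause was not tested. The depth is unknown, which limits every reading of an uncalled region.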
